A study of Mus musculus with 8 samples.

Results

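The Bcl2 family genes Bcl2, Bcl2l1, Mcl1, Bcl2l11, Bbc3, Pmaip1, Bid, Bmf, Bax and Bak1 were followed in RNA-seq of sorted mouse bone marrow B-cell progenitors. They were chosen by name, as 10 of the 27179 gene identifiers in the count table, and all 10 passed the filter on low counts in every comparison. The study asked how loss of the transcription factor Erg affects early B-cell development. It comprised 8 libraries in 4 groups of 2: pre-proB, proB and preB cells of Ergfl/fl mice, and pre-proB cells of Rag1CreT/+;ErgΔ/Δ mice, in which both floxed Erg alleles were deleted. All mice were of strains bred on C57BL/6J, carried floxed Erg alleles and were 7 to 10 weeks old. The controls were Rag1Cre+/+;Ergfl/fl, so the genotypes differed in the Cre allele as well as in Erg, and the Rag1-driven Cre acts in lymphoid cells from the common lymphoid progenitor onwards. The 3 populations were sorted as B220+IgM-IgD- cells lacking NK1.1 and CD11c, and were separated by CD43 and CD24: pre-proB cells were CD43+CD24-, proB cells CD43+CD24+ and preB cells CD43-CD24+.

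The Bcl2 family controls the mitochondrial route to cell death. Pro-survival members (Bcl2, Bcl-xL from Bcl2l1, and Mcl-1) restrain the effectors Bax and Bak, which permeabilise the outer mitochondrial membrane once released. The BH3-only members (Bim from Bcl2l11, Puma from Bbc3, Noxa from Pmaip1, Bid and Bmf) carry stress signals to them. In B-cell progenitors, survival signals from the interleukin 7 receptor and from the pre-B-cell receptor are known to act through this family.

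Libraries held 15565381 to 18457632 counts, so 3 counts corresponded to 0.154 to 0.194 CPM (counts scaled to a common library size after TMM normalisation). Erg itself, the targeted gene, measured 69.1 and 25.3 CPM in the Ergfl/fl pre-proB libraries and 2.5 and 2.58 CPM in the Rag1CreT/+;ErgΔ/Δ libraries, a log2 fold change of -4.23 ± 0.547 (SE; adjusted p = 0.025 by the quasi-likelihood F-test of edgeR, with p-values adjusted by Benjamini and Hochberg's method across all genes). That call was lost without either Erg-deficient library (log2 fold changes -4.2 and -4.25, adjusted p = 0.207 and 0.189). Erg stood at 144 and 127 CPM in proB cells and at 19.6 and 28.7 CPM in preB cells. Markers of some other cell types moved with the pre-proB label. The 8 plasmacytoid dendritic-like markers summed to 12800 to 15500 CPM in the 4 pre-proB libraries and to 609 to 970 CPM at both later stages. The sum of 8 T-like markers was 658 to 1480 CPM against 33.2 to 101 CPM, carried mostly by Cd4 (474 and 614 CPM in the controls), with Cd3e at 4.94 and 6.5 CPM there, and 7 of the 8 were called lower in proB than in pre-proB cells while Lck was called higher (0.88). The pattern also held for the sum of 8 NK-like markers (204 to 383 CPM against 5.63 to 14.7 CPM). Every marker of these 3 lists had counts in at least 1 library of each group. Myeloid-like markers did not follow the label, with sums of 181 to 229 CPM in Ergfl/fl pre-proB cells. They differed between the proB replicates, with sums of 185 and 437 CPM. Erythroid-like markers went the other way, with sums of 2.76 to 6.26 CPM in the 4 pre-proB libraries and 19.9 to 33.6 CPM at both later stages. Of the B-lineage markers, Cd79a was at 169 and 60 CPM in Ergfl/fl pre-proB cells, 784 to 1400 CPM in proB and preB cells, and 2.56 and 4.39 CPM in Erg-deficient pre-proB cells. The 13 markers of that list did not all move alike. In proB against pre-proB cells 10 were called higher, and Ptprc (-1.86) and Spn (-1.13) lower, with 36.2% of all genes higher and 36.8% lower. In preB against proB cells 4 were called higher and 4 lower, with 29.0% and 29.9% of all genes. The sum of 8 proliferation markers also differed by stage, from 1410 to 1580 CPM in pre-proB libraries to 6420 to 6630 CPM in proB and 4040 to 4770 CPM in preB libraries. The part these cells and this cycling may have in the stage differences described here was not tested, and in bulk RNA a smaller share of cells of a type cannot be told apart from less RNA per cell.

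**Figure D1:**
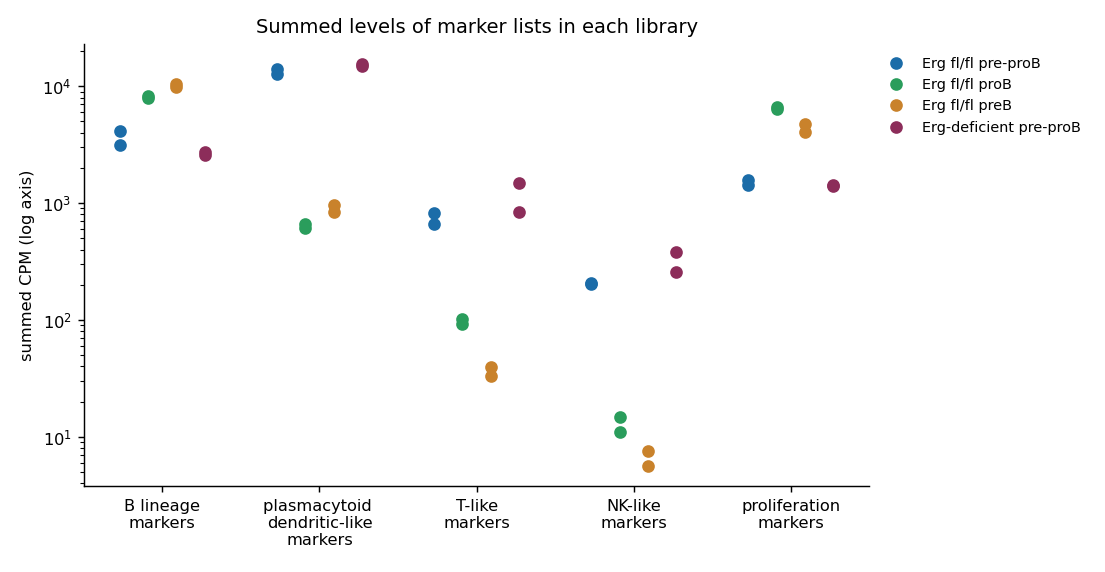
Summed CPM (vertical log axis) of 5 marker lists in each of the 8 libraries, coloured by group. The 4 pre-proB libraries lie at 12800 to 15500 CPM for plasmacytoid dendritic-like markers, against 609 to 970 CPM in the proB and preB libraries.

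The 3 members with the widest range between groups were Bcl2l1, Bcl2 and Bmf, whose highest and lowest group means differed 23.1-fold, 13.8-fold and 10.3-fold. Bcl2 fell along the pathway while Bcl2l1 and Bmf rose, so the 250 bases before one annotated start of each are given, from RefSeq on GRCm38.p6 and 5′ to 3′ on the gene's own strand. Capitals mark matches to 6 motifs searched on both strands: GGAAGT (ETS core), CAGCTG (E-box), GTAAACA (forkhead), TTCNNNGAA (STAT), CCCNNGGG (EBF) and an IRF motif of 2 GAAA repeats separated by 2 bases.
Bcl2, chr1:106714291-106714540, minus strand: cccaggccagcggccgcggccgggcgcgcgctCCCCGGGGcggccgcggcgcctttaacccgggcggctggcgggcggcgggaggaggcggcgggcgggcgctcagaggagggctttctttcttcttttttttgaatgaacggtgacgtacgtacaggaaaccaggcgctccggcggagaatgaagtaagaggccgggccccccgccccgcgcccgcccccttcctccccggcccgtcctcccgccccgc
Bcl2l1, chr2:152831729-152831978, minus strand: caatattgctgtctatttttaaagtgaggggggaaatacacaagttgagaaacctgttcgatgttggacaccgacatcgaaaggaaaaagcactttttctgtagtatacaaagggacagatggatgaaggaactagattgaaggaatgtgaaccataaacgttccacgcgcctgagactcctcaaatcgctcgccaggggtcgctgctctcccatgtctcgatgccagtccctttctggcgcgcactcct
Bmf, chr2:118547600-118547849, minus strand: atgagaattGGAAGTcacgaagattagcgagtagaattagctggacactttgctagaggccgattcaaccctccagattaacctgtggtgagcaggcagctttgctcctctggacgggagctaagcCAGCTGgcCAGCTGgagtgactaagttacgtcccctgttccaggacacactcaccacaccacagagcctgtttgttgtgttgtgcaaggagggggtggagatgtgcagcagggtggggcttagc

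The Bcl2 stretch held 1 CCCNNGGG match, at position -218 from the start, and the Bcl2l1 stretch held none of the 6 motifs. That stretch precedes the most upstream of the Bcl2l1 starts given a window. The gene is annotated further upstream, to chr2:152833803, and the bases before that end were not searched. The other Bcl2l1 starts had a CCCNNGGG at -239 in one window and a GGAAGT at -122 in another, and the window of the start shown had a GGAAGT at 37 bases after it. The Bmf stretch, which lies in an intron of longer annotated Bmf transcripts, held 2 copies of CAGCTG at -124 and -116 and 1 GGAAGT at -241. It is the Bmf window with the most matches, 3 against 1 and 2 in the others, and was chosen for printing with those matches known. No matches overlapped. Windows of 300 bases, which add 50 bases after the start, were given for 9 of the 10 genes (not Pmaip1), 16 windows in all. CAGCTG was in 4 of the 16, among them all 3 Bmf windows, and in 16.3% of the 32851 windows of that length across the genome. GGAAGT was in 5 of the 16 and in 23.8% of all windows, CCCNNGGG in 5 and in 13.7%, and GTAAACA in 2 (1 each of Bcl2l11 and Bbc3) and in 3.65%. The CCCNNGGG count includes overlapping Bbc3 windows that hold the same site, 34 bases after one start and at -137 from another, so that site is counted more than once. TTCNNNGAA and the IRF motif were in none of the 16, and in 8.3% and 3.44% of all windows. These are matches of letters, with no measurement of binding.

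Between pre-proB and proB cells of Ergfl/fl mice, 8 of the 10 genes passed an adjusted p of 0.05, with 4 higher and 4 lower in proB cells. Of all 13650 genes tested, 73.0% passed in this comparison (36.2% higher and 36.8% lower), so a count of 8 lay near the background. Between proB and preB cells 8 passed again, 5 higher and 3 lower in preB cells, against 58.9% of all genes (29.0% higher and 29.9% lower). Between pre-proB and preB cells 8 passed, 4 higher and 4 lower, against 70.7% of all genes (36.5% higher and 34.1% lower). The median absolute log2 fold change of the 10 genes was 1.01, 0.83 and 1.52 in these comparisons, and that of all genes tested was 0.69, 0.44 and 0.6. The 3 stage comparisons came from a single fit of 6 libraries and share them, so they are not independent of each other. An exact permutation test of 2 against 2 libraries cannot give a two-sided p below 0.33, and the p-values given here are all from models fitted across genes (edgeR, quasi-likelihood, Benjamini-Hochberg). Lack of overlap between groups of 2 libraries is given below for single genes only as a description. Its share over all genes was not computed.

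**Figure D2:**
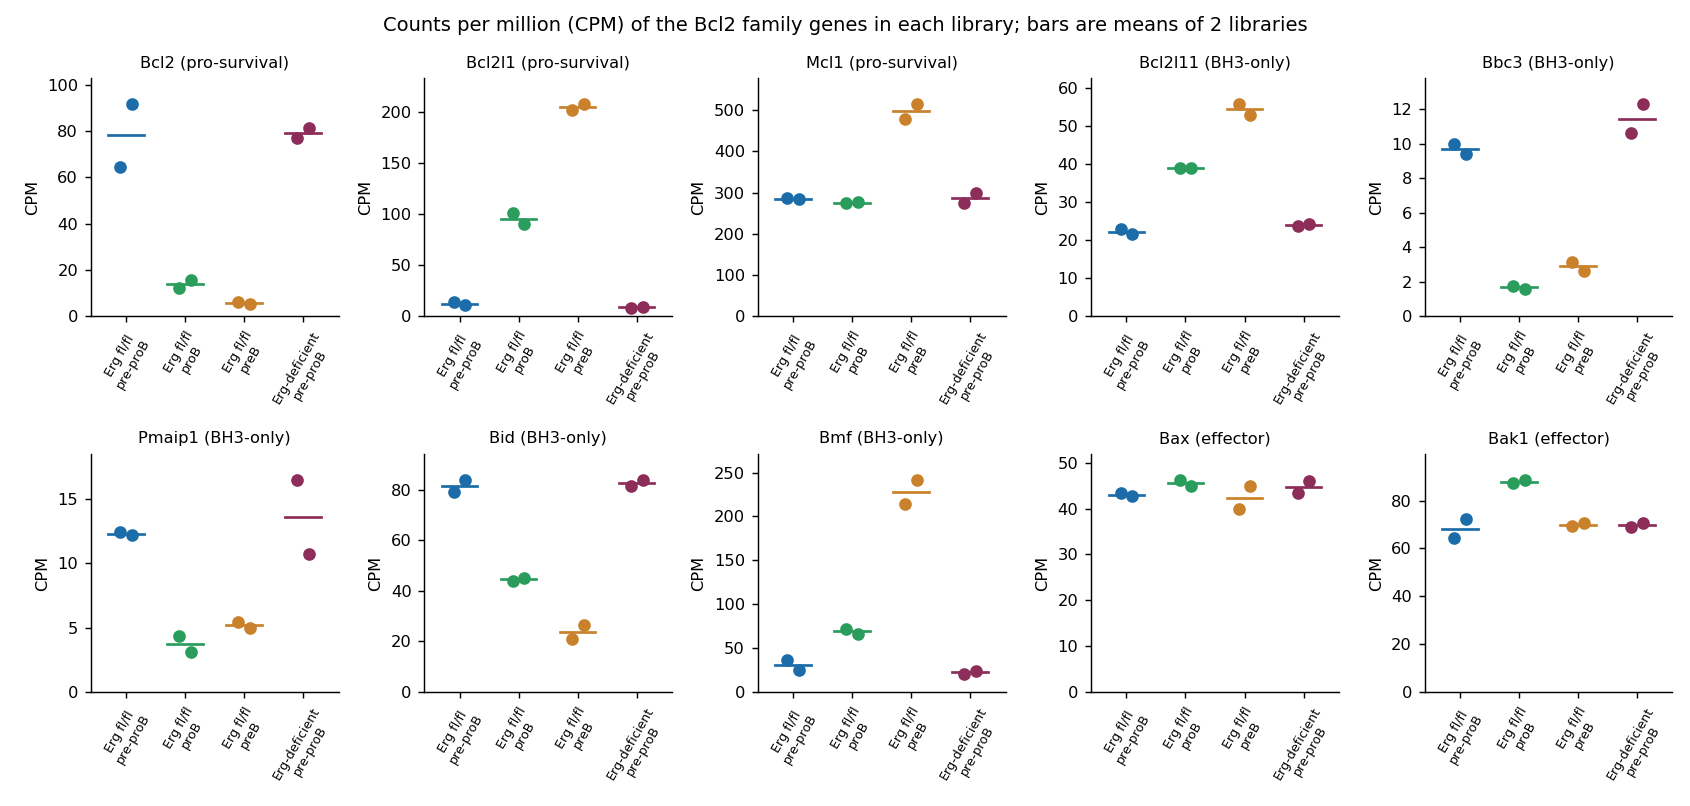
CPM (vertical axes, each from 0) of the 10 genes in each library, with points for libraries and bars for the means of 2. Bcl2 drops from 64.5 and 91.8 CPM in Ergfl/fl pre-proB cells to 6.1 and 5.35 CPM in preB cells, while Bcl2l1 climbs from 13.9 and 10.8 to 202 and 208 CPM.

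Among the pro-survival genes, Bcl2 (Entrez 12043, chr1:106538176-106714290) was at 64.5 and 91.8 CPM in Ergfl/fl pre-proB cells, 12.3 and 15.8 CPM in proB cells and 6.1 and 5.35 CPM in preB cells. No library of one stage overlapped those of another. Bcl2 was 5.42-fold lower in proB than in pre-proB cells (log2 fold change -2.44 ± 0.184, SE; adjusted p = 4.07e-06, edgeR) and a further 2.45-fold lower in preB cells (-1.29 ± 0.229; adjusted p = 0.00148). The Bcl2 transcript is long, and an antisense gene is annotated over it. Whether counting used strand is not stated, and without strand antisense reads would be counted with it.

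Bcl2l1 (Entrez 12048, chr2:152758732-152833803), the gene of Bcl-xL, went the other way. It was at 13.9 and 10.8 CPM in pre-proB, 101 and 90 CPM in proB and 202 and 208 CPM in preB cells, again without overlap. The fitted rise was 7.92-fold from pre-proB to proB (2.99 ± 0.108 on the log2 scale; adjusted p = 5.2e-08, edgeR) and 2.16-fold from proB to preB (1.11 ± 0.0864; adjusted p = 1.91e-05). By size, the first of these log2 fold changes exceeded that of 92.2% of all genes tested. The counts are per gene, so Bcl-xL and the shorter Bcl-xS splice form were not separated. The protein-coding gene Cox4i2 is annotated on the opposite strand over Bcl2l1, so its reads may be shared if strand was not used.

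Mcl1 (Entrez 17210, chr3:95656944-95663179), whose short-lived protein is required at several steps of lymphocyte development, changed at a different step. It was at 286 and 285 CPM in pre-proB and at 274 and 276 CPM in proB cells, a log2 difference of -0.02 (95% interval -0.17 to 0.13; adjusted p = 0.805, edgeR). In preB cells it was at 479 and 515 CPM, above every library of the earlier stages, and the rise from proB cells was 1.82-fold (0.86 ± 0.0671; adjusted p = 1.94e-05).

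The opposite movement of Bcl2 and Bcl2l1 can be read within each library, where scaling between libraries drops out. The ratio of Bcl2l1 to Bcl2 counts was 0.215 and 0.118 in pre-proB cells of Ergfl/fl mice, rose to 8.2 and 5.68 in proB cells and reached 33.1 and 38.9 in preB cells. In Erg-deficient pre-proB cells it was 0.11 and 0.115. Bcl2 counts therefore outnumbered Bcl2l1 counts in all 4 pre-proB libraries and were outnumbered in all 4 later ones. These ratios are of counts, not of counts per length: the Bcl2 exons used for length add to 9157 bases and those of Bcl2l1 to 2698 bases.

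**Figure D3:**
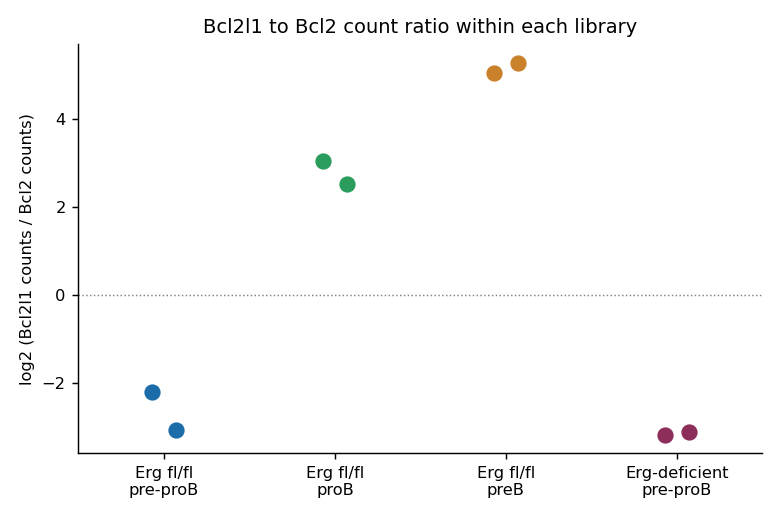
Base-2 logarithm of the ratio of Bcl2l1 to Bcl2 counts (vertical axis) in each library of the 4 groups; the dotted line at 0 marks equal counts. Points lie between -3.19 and -2.22 in the pre-proB libraries of both genotypes, at 3.04 and 2.51 in proB and at 5.05 and 5.28 in preB libraries.

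The 5 BH3-only genes split by direction. Bmf (Entrez 171543, chr2:118528757-118549686), a sensor linked to the cytoskeleton, was at 36.8 and 25.5 CPM in pre-proB, 71.5 and 66.6 CPM in proB and 214 and 242 CPM in preB cells. It rose 2.27-fold to proB (log2 fold change 1.19 ± 0.144; adjusted p = 8.33e-05, edgeR) and 3.32-fold from proB to preB (1.73 ± 0.131; adjusted p = 1.72e-05). By size, the second of these log2 fold changes exceeded that of 91.8% of genes tested.

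Bcl2l11 (Entrez 12125, chr2:128126038-128162547), the gene of Bim, a main inducer of death in developing lymphocytes, rose in smaller steps. Its values were 23 and 21.6 CPM in pre-proB, 38.9 and 39 CPM in proB and 55.9 and 53.1 CPM in preB cells, with no overlap between stages. The fitted rises were 1.79-fold (0.84 ± 0.0741 on the log2 scale; adjusted p = 1.09e-05, edgeR) and 1.41-fold (0.49 ± 0.0691; adjusted p = 0.000424). Bim splice forms were not separated.

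Bid (Entrez 12122, chr6:120893119-120917062), which links caspase 8 to the mitochondria, fell at both steps. It was at 79.1 and 84.1 CPM in pre-proB, 44 and 45.3 CPM in proB and 21.1 and 26.6 CPM in preB cells. Each stage was clear of the others, with log2 fold changes of -0.83 ± 0.0986 (adjusted p = 6.99e-05, edgeR) and -0.89 ± 0.106 (adjusted p = 0.000171).

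Bbc3 and Pmaip1, the genes of Puma and Noxa, are both known targets of p53, and among the BH3-only genes they were the pair with their lowest stage mean in proB cells. Bbc3 (Entrez 170770, chr7:16308398-16318334) was at 10 and 9.42 CPM in pre-proB, 1.75 and 1.59 CPM in proB and 3.14 and 2.65 CPM in preB cells, where the proB libraries held 32 and 31 counts. It was 5.66-fold lower in proB than in pre-proB cells (-2.5 ± 0.195; adjusted p = 4.99e-06, edgeR) and 1.74-fold higher in preB than in proB cells (0.8 ± 0.212; adjusted p = 0.0113). That rise missed the threshold without proB replicate 2 (0.72, adjusted p = 0.0708) and without preB replicate 1 (0.68, adjusted p = 0.061).

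Pmaip1 (Entrez 58801) was at 12.4 and 12.2 CPM in pre-proB, 4.37 and 3.14 CPM in proB and 5.41 and 4.96 CPM in preB cells. It was 3.21-fold lower in proB than in pre-proB cells (-1.68 ± 0.184; adjusted p = 4.28e-05, edgeR). The preB libraries both exceeded the proB ones, but the log2 difference of 0.48 (95% interval 0.03 to 0.92) had an adjusted p of 0.0624. It passed the test without proB replicate 1 (0.72, adjusted p = 0.0278) and with immunoglobulin genes left out (0.48, adjusted p = 0.0491). Both genes remained lower in preB than in pre-proB cells, by 3.26-fold for Bbc3 (adjusted p = 4.43e-05) and 2.31-fold for Pmaip1 (adjusted p = 0.000325).

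The effectors varied least. The protein-coding gene Gm45808 is annotated over Bax on the same strand, so reads may be shared. Bax (Entrez 12028, chr7:45461695-45466903) was at 43.4 and 42.7 CPM in pre-proB, 46.3 and 44.9 CPM in proB and 40 and 44.8 CPM in preB cells. None of its 3 stage differences passed the test: the log2 fold changes were 0.12 (95% interval -0.06 to 0.29), -0.1 (-0.27 to 0.08) and 0.02 (-0.15 to 0.2), with adjusted p = 0.194, 0.307 and 0.811 (edgeR). Without preB replicate 2 the proB to preB value was -0.23 with an adjusted p of 0.0467.

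Bak1 (Entrez 12018, chr17:27019812-27028627), the gene of Bak, was highest in proB cells, at 87.2 and 88.8 CPM, against 64.2 and 72.4 CPM in pre-proB and 69.2 and 70.7 CPM in preB cells. The proB libraries lay above all others, while those of pre-proB and preB cells overlapped. Bak1 rose by 0.4 ± 0.0712 on the log2 scale into proB cells (adjusted p = 0.000931, edgeR) and fell by 0.32 into preB cells (SE 0.0707; adjusted p = 0.0044). Ggnbp1 is annotated on the opposite strand over Bak1, so its reads may be shared.

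**Figure D4:**
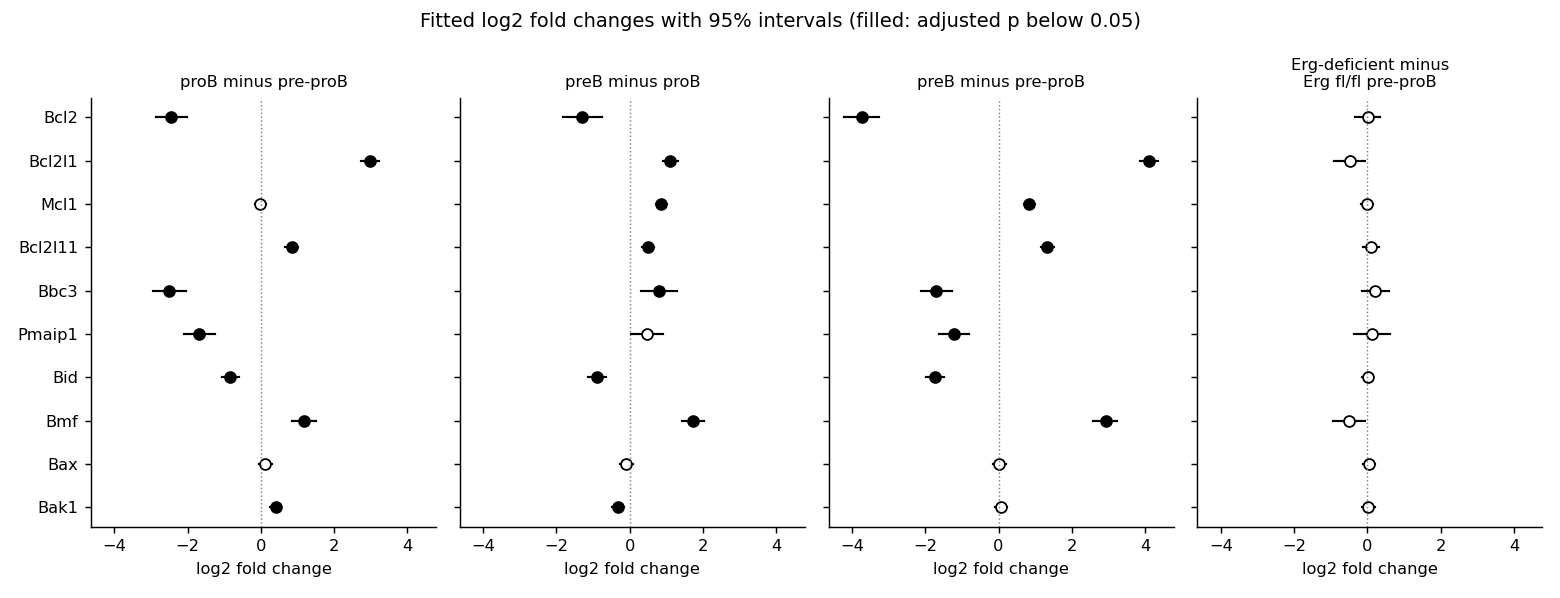
Fitted log2 fold changes (horizontal axis) with 95% intervals for the 10 genes in 4 comparisons; filled points have an adjusted p below 0.05. In each stage comparison 8 of 10 points are filled, against 73.0%, 58.9% and 70.7% of all genes from left to right. Between the genotypes 0 are filled, against 1.16% of all genes, and the largest values are -0.5 for Bmf and -0.48 for Bcl2l1.

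Levels of different genes were compared per length, as FPKM (CPM divided by exon length in kilobases), using RefSeq-matched exons. Mcl1 had the highest FPKM of the 10 genes in every group, at 83.5 ± 0.121 (SD, n = 2) in Ergfl/fl pre-proB, 80.5 ± 0.375 in proB and 145 ± 7.39 in preB cells. Bcl2l1 moved from position 8 of 10 in pre-proB cells (4.57 ± 0.797 FPKM) to 4 in proB (35.3 ± 2.83 FPKM) and 2 in preB cells (76 ± 1.69 FPKM). Bcl2 moved from position 5 (8.53 ± 2.11 FPKM) to 8 (1.54 ± 0.274 FPKM) and 10 (0.626 ± 0.058 FPKM). Among the BH3-only genes, Bid had the highest FPKM in pre-proB and proB cells (37.3 ± 1.59 and 20.4 ± 0.417) and Bmf in preB cells (47.2 ± 4.06). Bax stayed between 48.9 and 52.6 FPKM in group means and Bak1 between 28.6 and 36.9 FPKM. Some positions turned with all annotated exons as length, an alternative chosen after seeing the data. Bcl2l1 was then at position 10 in Ergfl/fl pre-proB cells (2.69 ± 0.469 FPKM, SD, n = 2), within the spread of Bcl2l11 (2.77 ± 0.123 FPKM), and stayed at 4 in proB and 2 in preB cells (20.8 and 44.7 FPKM). Bak1 then stood above Bax in every group (28.4 against 27.3 FPKM in Ergfl/fl pre-proB and 36.6 against 28.9 FPKM in proB cells), by less than the spread of Bak1 in the former (SD of 2.39 FPKM). Bmf stood above Bid in proB cells by less than the spread of Bmf (13.1 ± 0.658 against 12.6 ± 0.257 FPKM), so the order of these 2 there depends on the exons counted. The positions of Mcl1 and Bcl2 were as before.

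**Figure D5:**
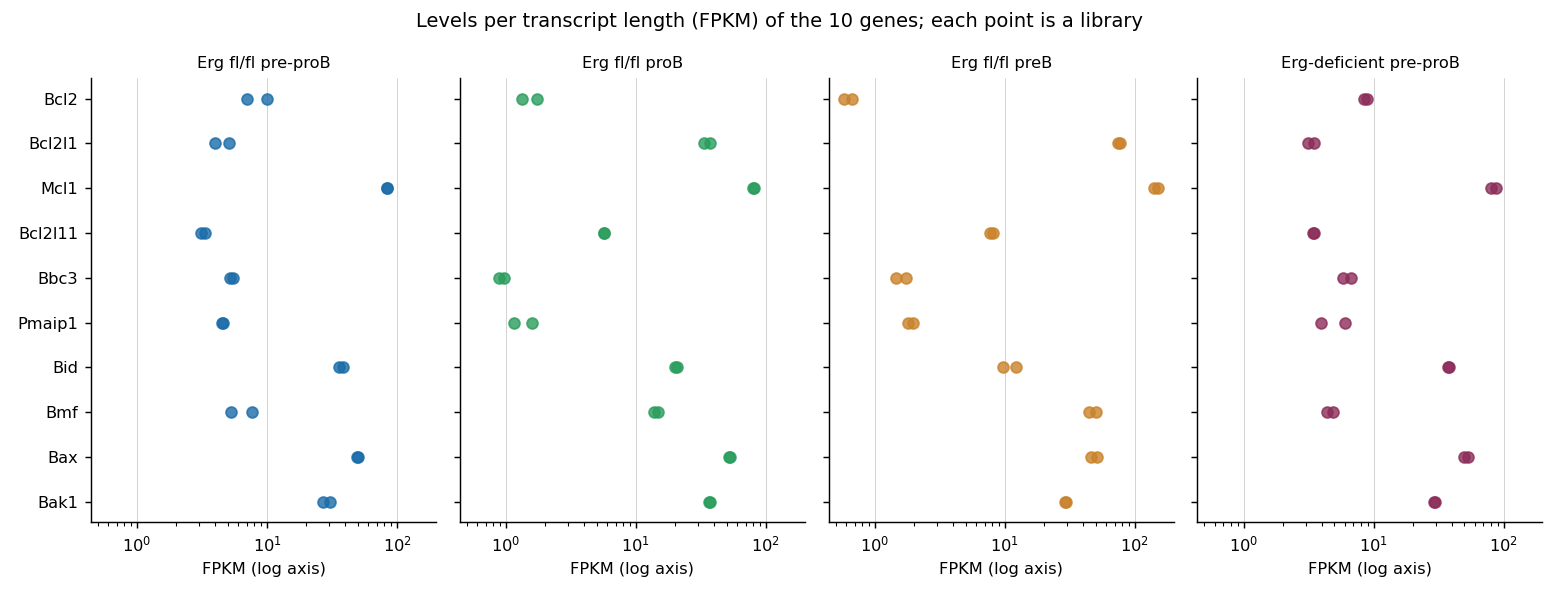
Levels per exon length (FPKM, horizontal log axis) of the 10 genes in each library of the 4 groups. Mcl1 is rightmost in every panel, Bcl2l1 is second to it in preB cells at 74.8 and 77.2 FPKM, and Bcl2 is leftmost there at 0.667 and 0.584 FPKM.

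Between Erg-deficient and Ergfl/fl pre-proB cells, 0 of the 10 genes passed an adjusted p of 0.05 in edgeR. Of the 13005 genes tested, 1.16% (151) passed (0.215% higher and 0.946% lower), so a count of 0 lay near the background. DESeq2 and limma-voom also called 0 of the 10. At an unadjusted p under 0.05, edgeR listed 2 of the 10 and 1624 of all genes. The median absolute log2 fold change of the 10 genes was 0.07, and that of all genes 0.11. This comparison shares the Ergfl/fl pre-proB libraries with the stage comparisons.

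The 2 genes with an unadjusted p under 0.05 were those that rose most along the stages. Bcl2l1 was at 13.9 and 10.8 CPM in Ergfl/fl and 8.44 and 9.36 CPM in Rag1CreT/+;ErgΔ/Δ pre-proB cells, so that the groups did not overlap, with a log2 fold change of -0.48 (95% interval -0.9 to -0.06; adjusted p = 0.328, edgeR). Bmf was at 36.8 and 25.5 CPM against 21 and 23.4 CPM, also without overlap, with a log2 fold change of -0.5 (-0.93 to -0.08; adjusted p = 0.316, edgeR). Bcl2l11, Bbc3 and Bax did not overlap between the genotypes either, so this does not set the 2 genes apart. The share of all genes without overlap was not computed, so nothing is drawn from it. The values of Bcl2l1 and Bmf both depended on which control was used. Without Ergfl/fl pre-proB replicate 2, Bmf passed the test (-0.76, adjusted p = 0.00578, edgeR) and Bcl2l1 was at -0.67 (adjusted p = 0.131); without replicate 1 they were at -0.2 and -0.28. The 13 B-lineage markers summed to 4140 CPM in replicate 1 and 3130 CPM in replicate 2, with Cd79a at 169 against 60 CPM. Ptprc (1320 against 1410 CPM) and Spn (560 against 614 CPM) of that list went the other way. Replicate 1 also had more Erg (69.1 against 25.3 CPM) and the lower Bcl2 value (64.5 against 91.8 CPM). The part of this difference between the controls was not tested.

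Of the remaining pro-survival genes, Bcl2 was at 76.9 and 81.3 CPM and Mcl1 at 275 and 298 CPM in the Erg-deficient libraries, between or around the control values. Their log2 fold changes were 0.01 (95% interval -0.34 to 0.35) and -0.01 (-0.17 to 0.15). Among the BH3-only genes, the log2 fold changes were 0.1 (-0.12 to 0.32) for Bcl2l11, 0.22 (-0.14 to 0.58) for Bbc3, 0.13 (-0.37 to 0.63) for Pmaip1 and 0.01 (-0.14 to 0.16) for Bid. Pmaip1 had the most uneven pair, at 16.5 and 10.7 CPM. Bax and Bak1 gave 0.04 (-0.13 to 0.21) and 0.02 (-0.15 to 0.2). The intervals of Bcl2, Mcl1, Bcl2l11, Bid, Bax and Bak1 thus lie within 0.35 of 0 on the log2 scale, and wider differences remain possible for the other 4. Of B-lineage markers, 7 of 13 were called lower in the Erg-deficient cells in the same fit, among them Cd79a (-5.06) and Ebf1 (-6.39), and 4 of 8 NK-like markers were called higher (Ncr1 at 3.01). Of 8 myeloid-like markers, S100a9 (-2.31) and Ngp (-2.32) were called lower. Of 6 plasma cell-like markers only Ighg2c was called lower (-8.79, from 91.2 and 54.7 CPM to 0.0625 and 0.258 CPM). The other 5 were not called, and the median of that list was -0.093. Of these, Xbp1 was at 408 and 485 CPM in the controls and 490 and 533 CPM in the Erg-deficient libraries. Jchain went the other way, from 96.5 and 106 CPM to 9.56 and 42 CPM. The part of these markers in the values of the 10 genes was not tested.

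Ordering the group means of each gene gave Bcl2 as Erg-deficient pre-proB, Ergfl/fl pre-proB, proB, preB from high to low, with the first pair not separable (adjusted p = 0.99, edgeR) and each later neighbour past the threshold. Bid had the same order, with its first pair not separable (adjusted p = 0.974). Bcl2l1 and Bmf ran preB, proB, Ergfl/fl pre-proB, Erg-deficient pre-proB, with only the last pair not separable (adjusted p = 0.328 and 0.316). No neighbouring pair of Bax differed past the threshold, and for Mcl1 only preB cells stood above the rest.

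Beyond the 10 genes, 13 other family genes were listed, of which 7 passed the filter in the stage fit and 6 in the genotype fit. Hrk and Bcl2l10 had 0 counts in every library, which allows up to 0.194 CPM, and Bcl2a1a, Bcl2a1d, Bik and Bcl2l15 had at most 9 counts. The Bcl2a1 genes are near-identical copies, so their low counts are uncertain. From pre-proB to proB cells 3 of the 7 were higher and 3 lower, near the 36.2% and 36.8% of all genes. Bcl2l2, which encodes pro-survival Bcl-w, fell from a mean of 58.1 CPM to 19.3 and then 13.8 CPM in preB cells (-1.55, adjusted p = 6.22e-07, then -0.48, adjusted p = 0.0027, edgeR). Bok, a Bax-like effector, fell from 15.9 CPM in proB to 1.45 CPM in preB cells (-3.43, adjusted p = 0.000263), and it was at 1.67 and 0.243 CPM (26 and 4 counts) in the Ergfl/fl pre-proB libraries. Its rise into proB cells was also called (4.1 ± 0.48, adjusted p = 6.6e-05, edgeR), with a pre-proB level that rests mostly on replicate 1. Bcl2l14 was at 3.9, 0.291 and 0.713 CPM and Bcl2l12 at 17.4, 28.4 and 24.8 CPM. None of the 6 tested passed between the genotypes.

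Downstream, 8 of 12 apoptosome and caspase genes rose and 2 fell from pre-proB to proB cells, and 3 rose and 6 fell from proB to preB cells. Of all genes, 36.2% rose and 36.8% fell at the first step and 29.0% rose and 29.9% fell at the second, and the counts of this and the following lists stand beside those shares. The group's median log2 fold change was 0.4 and then -0.25, against 0 for all genes in both. Cycs, the cytochrome c gene, went from 48.5 to 93.9 and 53.9 CPM, and Htra2, a mitochondrial protease, from 20.5 to 44.6 and 28.5 CPM. Casp9, the initiator caspase of this route, fell from 35.2 to 25.7 CPM and rose to 61.2 CPM (-0.42, adjusted p = 0.000739, then 1.26, adjusted p = 5.05e-06, edgeR). Casp6 fell from 47.5 to 17.8 CPM and rose to 25.9 CPM. Of 5 inhibitors of apoptosis, 4 fell into proB cells (36.8% of all genes did) and 4 rose into preB cells (29.0% of all genes), led by Birc3, which encodes cIAP2 (141, 72 and 226 CPM), and by Naip5 (115, 6.31 and 10.9 CPM). Of 7 death receptor genes, 6 fell into proB cells (36.8% of all genes), and 2 rose and 2 fell into preB cells (29.0% and 29.9% of all genes). Tnfrsf1a, the receptor TNFR1, went from 64.1 to 4.84 and 0.831 CPM, and Ripk1 from 85.2 to 50.5 and 36 CPM.

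Of 8 genes acting on Mcl-1 or Bim turnover or binding family proteins, 4 rose and 1 fell into proB cells, and 2 rose and 3 fell into preB cells. The 5 called at each step stand against 73.0% and 58.9% of all genes, so neither count exceeds the background by more than 1 gene. Btrc, a ubiquitin ligase subunit, rose from 78.6 to 145 CPM into proB cells, and Dynll2, a dynein light chain that binds Bmf, fell from 76.8 to 41.2 CPM into preB cells. Of 11 upstream regulators tested, 5 rose and 4 fell at each step, with 73.0% and 58.9% of all genes called. Myc went from 17.5 to 172 and 21.9 CPM (3.34, adjusted p = 1.08e-07, then -2.97, adjusted p = 2.81e-06, edgeR). Foxo1, a transcription factor known to act on Bcl2l11, went from 118 to 217 and 389 CPM, Foxo3 from 35.7 to 18.4 and 26.1 CPM, and Jak3, which signals below the interleukin 7 receptor, from 84.5 to 73 and 32 CPM. Between the genotypes, no gene of the caspase, inhibitor, death receptor or turnover lists passed, and of the regulators Myc did, at 6.03 against 17.5 CPM (-1.55 ± 0.208, adjusted p = 0.0293, edgeR).

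For the 7 members whose group means spanned at least 1 on the log2 scale, the genes most like them were found among 13815 genes by the root mean square (RMS) difference of centred log2 CPM over the 8 libraries. This is a description of 8 libraries that share 4 groups. Closest to Bcl2l1 were Irf4 (RMS difference 0.116), Bach2 (0.17) and Ets2 (0.183), and Irf4 ran from 73.7 and 58.5 CPM in Ergfl/fl pre-proB to 914 and 859 CPM in preB cells. Closest to Bcl2 were Cgas (0.14), Iqgap2 (0.174) and Foxred2 (0.178), and to Bmf Mylip (0.138), Sorcs2 (0.175) and Kctd3 (0.178). Bbc3 lay nearest to Gab3 (0.0561), Rnf13 (0.112) and Tnfaip8l2 (0.123). Bid lay nearest to Tnfrsf1b (0.0634), Snd1 (0.0727) and Sgsm2 (0.0896), Bcl2l11 to Tesk2 (0.057), Ano6 (0.0588) and Pik3c2a (0.077), and Pmaip1 to Themis2 (0.132) and Zfp784 (0.147).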

How the data were processed

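RNA-seq was performed on pre-proB, proB and preB cells, sorted independently from 2 mice per genotype. The mouse behind each library was not stated, so p-values measure only the spread between these samples. According to the methods, the authors trimmed reads with Trim Galore, aligned them to mm10 (GRCm38) with STAR, and counted them per gene with featureCounts using built-in Entrez annotation. The deposited table holds raw counts per gene, unnormalised, with depths of 15565381 to 18457632. Intervals cover error between libraries only as far as 2 allow.

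Entrez identifiers were matched to RefSeq symbols (25275 of 27179). Genes with at least 0.5 CPM in 2 libraries of a fit were kept, TMM-scaled and tested with edgeR 4.0.16 (quasi-likelihood, R 4.3.3). The genotypes were compared over 4 libraries and the stages over 6. CPM values used TMM factors of all 8 libraries (0.952 to 1.05). FPKM used GENCODE exon lengths, not the authors' annotation. The fits were also run on simulated counts, with the same spread set for every gene, which does not cover genes with uneven replicates. The outcome is not given here. Members, gene lists and the rule for named genes (the 10 members and Erg, up to 3 called genes per list with the lowest p, and 3 most alike genes) were chosen with earlier results of these data known. Ncr1, Ebf1, Cd79a, Ptprc, Spn, Cd4, Cd3e, Lck, S100a9, Ngp, Ighg2c, Xbp1 and Jchain are from the marker lists. Some genes that the rule names are not reported here. Alternatives were RLE and total-count scaling, filters, DESeq2, limma-voom, other quasi-likelihood settings, all libraries in one fit, leaving out immunoglobulin genes or 1 library, and a replicate block.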

Additional observations from a re-analysis of the deposited data

How the results depend on the processing

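The calls of Bcl2, Bcl2l1, Mcl1, Bcl2l11, Bid, Bmf and Bak1 kept direction and threshold in all 17 or 18 alternatives of each stage comparison in which they were called, and the number of the 10 genes called stayed at 8 except between proB and preB cells (7 to 9 when leaving out 1 library, 9 without immunoglobulin genes, 8 without both pre-proB libraries, a check added after seeing the data). Between the genotypes the number was 0 in every alternative but 1: leaving out 1 library gave 0 to 1, the 1 being Bmf without Ergfl/fl pre-proB replicate 2. The fits with 1 library left in a group assume that it varies like the others. Over all genes, the genotype calls ranged from 10 (without Erg-deficient replicate 2) and 16 (without replicate 1) to 442 (all libraries in one fit), against 151, with 400 by DESeq2, 401 without Ergfl/fl pre-proB replicate 2, 279 with no filter, 88 with edgeR's version 4 quasi-likelihood and 41 by limma-voom.

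The Erg log2 fold change lost its call under limma-voom (-4.02, adjusted p = 0.229) and robust quasi-likelihood (-4.23, adjusted p = 0.363), and ranged from -4.8 to -3.32 when leaving out 1 library; the cause was not tested. Signs changed for values near 0 that were not called. Bax between preB and pre-proB cells was -0.015 under RLE scaling and DESeq2, -0.033 with no filter, -0.013 with a minimum of 1 CPM and -0.02 in the fit of all 8 libraries. Under total counts, the genotype values of Bcl2, Bak1 and Bid were -0.027, -0.012 and -0.027 and the proB against pre-proB value of Mcl1 was 0.037, and in the fit of all 8 libraries the genotype value of Mcl1 was 0.0045. Leaving out 1 library gave genotype ranges of -0.22 to 0.26 for Bcl2, -0.067 to 0.05 for Mcl1, -0.22 to 0.41 for Pmaip1, -0.052 to 0.089 for Bak1 and -0.025 to 0.03 for Bid. It gave -0.071 to 0.0011 for Mcl1 between proB and pre-proB cells, and -0.091 to 0.11 for Bax and -0.075 to 0.13 for Bak1 between preB and pre-proB cells.

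Correlations of the deviations of same-numbered libraries were -0.0325 to 0.118, and all but the highest were at most 0.0474. The mouse behind each library is also not stated, so the numbers were not used as pairs. With the number as a replicate block, the calls among the 10 genes stayed at 0 between the genotypes and 8 in each stage comparison, and 265 genes were called between the genotypes.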
